A study of Rattus norvegicus with 9 samples.

Results

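Cytosolic ribosomal protein genes encode the proteins of the large (60S) and small (40S) ribosomal subunits that translate messages in the cytosol. Members were the genes whose symbol starts with Rpl or Rps and a number, together with Rplp0, Rplp1, Rplp2 and Rpsa. S6 kinase genes and pseudogene or numbered like copies were left out. The rule found 47 genes, measured by 57 of the 35129 probes on the arrays, among 12167 genes with a single symbol. Of the 47 genes, 29 belong to the large subunit, counting the stalk proteins Rplp0, Rplp1 and Rplp2, and 18 to the small subunit, counting Rpsa.

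RNA came from oligodendrocyte progenitor cultures of newborn rats, sorted by surface antigens into 3 populations with 3 one-colour arrays each. The O4 population carried the O4 antigen and lacked NG2, the NG2/A2B5 population carried both NG2 and A2B5, and the NG2 population carried NG2 only. Each population has an array numbered I, II and III. The series describes 3 cultures but does not tie the numerals to them, and the p-values below reflect only how far these 9 arrays scatter, which may be technical.

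Ribosomal protein messages are among the most abundant in dividing and growing cells, and most of their products are built into each ribosome in a fixed proportion. Many begin with a stretch of pyrimidines at the cap, the 5′ terminal oligopyrimidine (TOP) motif, through which the mTORC1 kinase controls their translation. In the oligodendrocyte lineage, cells pass from a dividing progenitor to a cell that makes large amounts of myelin protein and membrane.

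The start regions of some of these genes are shown with their runs of C and T, which the choice of members did not use. RefSeq promoters on GRCr8 were matched for 41 of the 47 genes. Each line gives 35 bases before and 15 bases from the annotated start, read 5′ to 3′ on the gene's strand. Capitals mark the longest run of C and T that touches the 10 bases either side of the start, or the first of equal runs. Rps26, Rps15 and Rpl9 are bright genes described below, Rpl34 had the smallest p of the members between numerals, and Rps27 and Rps27l are a pair of related genes.
Rps26: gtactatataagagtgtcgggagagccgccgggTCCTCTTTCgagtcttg
Rps15: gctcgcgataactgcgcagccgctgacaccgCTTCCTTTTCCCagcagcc
Rpl9: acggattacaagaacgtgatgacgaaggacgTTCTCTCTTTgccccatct
Rpl34: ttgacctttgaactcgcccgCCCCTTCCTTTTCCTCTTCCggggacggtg
Rps27: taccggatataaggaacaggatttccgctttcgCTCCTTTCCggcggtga
Rps27l: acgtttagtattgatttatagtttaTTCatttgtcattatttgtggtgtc
The windows lie at chr7:1643390-1643439 (minus strand) for Rps26, chr7:10068101-10068150 (minus) for Rps15, chr14:43247555-43247604 (plus) for Rpl9, chr2:221962269-221962318 (minus) for Rpl34, chr2:177964592-177964641 (minus) for Rps27 and chr8:76443623-76443672 (plus) for Rps27l. The run was 9 bases long in Rps26, 12 in Rps15, 10 in Rpl9, 20 in Rpl34 and 9 in Rps27, against 3 in Rps27l. Relative to the annotated start, these runs began at −2, −4, −4, −15, −2 and −10 in that order. Some bright genes not printed here also had short runs, such as 6 bases in Rps6, 5 in Rpl3 and 4 in Rps19.

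A run of 8 or more C or T touching the 10 bases either side of the start was present in 28 of the 41 member promoters (68.3%), against 13.2% of all 27457 tabulated promoters. The letters CTTTC lay within 30 bases of the start on the sense strand in 19 of 41 (46.3%), against 7.84% of all promoters. On the reverse strand the same letters were in 0 of 41, against 7.5% of all. CTTCCG, on either strand of the whole 300-base table entry, was in 21 of 41 (51.2%), against 17.4%. The palindrome CTCGCGAG was in 4 of 41 (9.76%), against 0.827%. TATAAA within 50 bases before the start was in 1 of 41 (2.44%), near the 2.46% of all promoters. CTTTC can lie inside a run of C and T, so those counts overlap. A run counted here need not begin at the annotated start, so its share is not the share of genes with a TOP motif. These letters describe the genes and say nothing of which factor binds there.

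Values are deposited scaled probe intensities, in arbitrary units on a linear scale. Intensities of different probes are not comparable as amounts of RNA. They are used below to compare a probe between arrays and to say how far it stood above the dim readings of its array. The marker sums below add different probes and are not amounts of RNA. Array medians lay between 1.05 and 1.07, while the 99th percentile was 139 on O4 II and 145 on NG2 II and 108 to 126 on the other 7 arrays.

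Of the 47 genes, 26 lay above the 90th percentile of probes on all 9 arrays, called bright here, and 19 of these lay above the 99th percentile on all 9. Another 8 lay under the 25th percentile on at least 1 array, and the other 13 lay between. The bright genes comprised 15 of the large subunit and 11 of the small subunit. Among the 20 brightest named genes of an array, 8 to 12 were ribosomal protein genes, and among the 50 brightest, 15 to 17 were. Of the 28 member probes annotated to a RefSeq mRNA, 24 lay above the 90th percentile on all arrays, against 5 of the 29 probes without one.

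**Figure D1:**
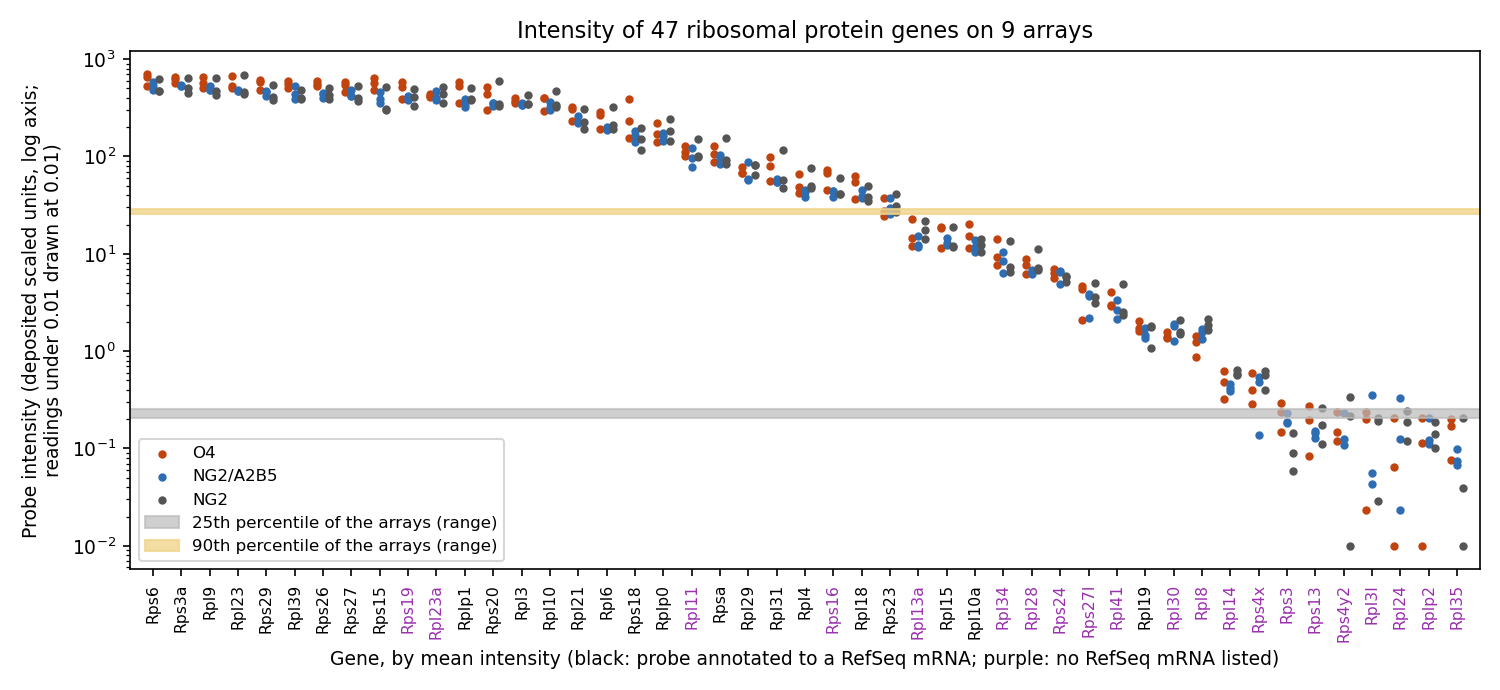
Intensity of the 47 ribosomal protein genes (1 probe a gene, log axis, deposited scaled units), with 1 point for each of the 9 arrays coloured by population and bands for the range of the 25th and 90th percentiles over the arrays. The 26 genes on the left lie above the 90th percentile on every array, and the 8 dimmest reach under the 25th percentile on at least 1 array.

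The brightest probes by mean intensity were those of Rps6, Rps3a, Rpl9, Rpl23 and Rps29. Rps6, the small-subunit protein phosphorylated by S6 kinase, read 532, 652 and 698 units on O4 arrays I, II and III, 482, 526 and 585 on NG2/A2B5 arrays, and 467, 632 and 476 on NG2 arrays. Rps3a, a small-subunit protein, read 621, 649 and 575 in O4, 536, 536 and 529 in NG2/A2B5, and 500, 642 and 451 in NG2. The populations overlapped for Rps6, and the NG2 II array stood with the O4 arrays for both genes. Rpl3, a large-subunit protein next to the peptidyl transferase centre, varied least of the bright genes over the 9 arrays (SD 0.12 on the log2 scale). Rps18 varied most (SD 0.50), with 385 units on O4 III against 116 to 231 on the other 8 arrays.

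The dimmest 5 by mean were Rpl35, Rplp2, Rpl24, Rpl3l and Rps4y2, each under the 25th percentile on at least 5 arrays. Rpl3l, a copy of Rpl3 known from striated muscle in mouse, read 0.024 to 0.35 units, while its partner Rpl3 read 336 to 428. Rps27l, a copy of Rps27 that p53 induces in human cells, averaged 3.70 ± 1.40 units on the O4 arrays, 3.24 ± 0.93 on the NG2/A2B5 arrays and 3.91 ± 0.98 on the NG2 arrays (SD, n = 3 each). Rps27 averaged 532 ± 64.7 on the O4 arrays, 438 ± 35.4 on the NG2/A2B5 arrays and 433 ± 83.2 on the NG2 arrays (SD, n = 3 each). Probe quality and RNA amount cannot be told apart in such gaps, since 2 further probes of Rpl6 read 2.83 and 0.37 on average, against 227 for its brightest probe.

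Populations were compared with limma across all genes, calling a gene at a Benjamini-Hochberg adjusted p under 0.05. None of the 47 genes was called in O4 minus NG2/A2B5, in O4 minus NG2 or in NG2/A2B5 minus NG2. The background was as low: 0.00822% of 12165 genes were called in each O4 contrast and 0% in NG2/A2B5 minus NG2. At an unadjusted p under 0.05 in limma, 1, 4 and 1 of the 47 genes passed in these contrasts in that order, against 3.28%, 8% and 4.48% of all genes. Differences are given below with 95% intervals from the fit. In bulk samples, fewer cells of a type and less RNA per cell cannot be told apart.

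In O4 minus NG2/A2B5, all 26 bright genes had a positive log2 difference, from 0.03 for Rpl23a to 0.56 for Rps18, with a median of 0.27. Over all 47 genes, 42 were above 0 and 5 below, with a median of 0.24. The median was 0.06 over 299 other genes of mean intensity 100 or more and 0.02 over all genes tested. These 299 are called the other bright genes below, although that cut is stricter and only 21 of the 47 members meet it. The lowest O4 array exceeded the highest NG2/A2B5 array for 6 of the 47 genes, where 5.31% of all genes did so. These were Rps26, Rps16, Rps15, Rps29, Rps3a and Rpl23, all bright and 5 of them of the small subunit. No member lay wholly below, where 3.36% of all genes did.

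Rps26, which sits at the mRNA exit of the small subunit, read 528, 595 and 555 units in O4, against 400, 433 and 446 in NG2/A2B5. Every O4 array lay above every NG2/A2B5 array. Its log2 difference was 0.39 (95% interval 0.05 to 0.73), with a limma p of 0.0303 before adjustment and 0.9997 after. Rps16, a small-subunit protein whose tail reaches the P-site tRNA, read 45.3, 73.4 and 66.9 in O4, against 44.5, 38.5 and 43.8 in NG2/A2B5. The O4 arrays were all higher, O4 I by less than 1 unit, and the log2 difference was 0.52 (−0.02 to 1.07). Rps15, needed for export of the small subunit from the nucleus, read 486, 568 and 645 in O4, against 457, 357 and 388 in NG2/A2B5. Its arrays did not overlap either, and the difference was 0.50 (−0.07 to 1.06).

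The acidic stalk proteins recruit elongation factors to the large subunit. Rplp1 read 351, 528 and 584 units in O4, against 386, 321 and 344 in NG2/A2B5. O4 I lay among the NG2/A2B5 arrays, and the difference was 0.45 (−0.07 to 0.97). Rplp0, the base of the stalk, averaged 176 ± 39.5 in O4 and 160 ± 15.6 in NG2/A2B5 (SD, n = 3 each), a difference of 0.12 (−0.45 to 0.69). Rplp2 read under the 25th percentile on all 9 arrays. Rpl8, near the peptidyl transferase centre, was among the 5 with a negative difference, at −0.40 (−0.92 to 0.12), with Rplp2, Rpl24, Rpl30 and Rps23.

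In O4 minus NG2 the bright genes were less uniform, with 19 above 0 and 7 below and a median of 0.18. The median over the 299 other bright genes was 0.03. By subunit, 10 of the 11 bright small-subunit genes were above 0 with a median of 0.31, and 9 of the 15 bright large-subunit genes were with a median of 0.05. The difference between subunits was not tested. After quantile normalization the counts were 9 of 11 with a median of 0.14 and 5 of 15 with a median of −0.10. The lowest O4 array exceeded the highest NG2 array for 3 of 47 genes (Rps3, Rps26 and Rpl39), where 7.51% of all genes did so. The reverse held for Rpl8 alone, where 6.54% of all genes did so.

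Rps26 read 528, 595 and 555 units in O4, against 392, 507 and 430 in NG2, so the arrays did not overlap. The log2 difference was 0.34 (95% interval 0.00 to 0.69), with a limma p of 0.0496 before adjustment and 0.625 after. Rps15 read 486, 568 and 645 in O4, against 305, 511 and 297 in NG2. NG2 II lay between the O4 arrays, and the difference was 0.65 (0.08 to 1.21; limma adjusted p = 0.594). Rpl39, a small protein that lines the exit tunnel of the large subunit, read 511, 561 and 597 in O4, against 387, 486 and 400 in NG2. The O4 arrays were all higher, and the difference was 0.40 (−0.01 to 0.80).

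Rpl8 read 1.25, 1.44 and 0.86 units in O4, against 1.65, 2.16 and 1.85 in NG2. It ran against the bright genes, with every O4 array lower and a difference of −0.69 (−1.21 to −0.18; limma adjusted p = 0.566). Rps3, at the mRNA entry of the small subunit, read 0.15, 0.24 and 0.29 in O4, against 0.091, 0.14 and 0.058 in NG2. The arrays did not overlap and the difference was 1.25 (0.40 to 2.11; limma adjusted p = 0.566), but its probe lay under the 25th percentile on 7 of 9 arrays.

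For genes named for their known roles, the interval of O4 minus NG2 crossed 0. Rps19, mutated in Diamond-Blackfan anaemia in humans, averaged 499 ± 101 units in O4 and 410 ± 82.7 in NG2 (SD, n = 3 each), a difference of 0.28 (−0.22 to 0.78). Rps6 differed by 0.26 (−0.17 to 0.69). Rpsa, also known as the laminin receptor precursor, averaged 107 ± 20.3 in O4 and 110 ± 38.2 in NG2 (SD, n = 3 each), a difference of 0.00 (−0.60 to 0.61). Rpl10, which joins the large subunit late in its assembly, differed by −0.04 (−0.53 to 0.45).

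In NG2/A2B5 minus NG2, 8 of the 26 bright genes were above 0 and 18 below, with a median of −0.09. The median was −0.03 over the 299 other bright genes, of which 167 were below 0, and −0.01 over all genes tested. Over all 47 genes 13 were above 0 and 34 below. The highest NG2/A2B5 array lay under the lowest NG2 array for 3 of 47 genes, where 5.01% of all genes did so. These were the large-subunit genes Rpl14, Rpl4 and Rpl28, at −0.51 (−1.07 to 0.05), −0.42 (−0.99 to 0.14) and −0.34 (−0.87 to 0.19). Rpl4, whose loop reaches into the exit tunnel, read 43.4, 45.5 and 38.2 units in NG2/A2B5, against 50.2, 76.4 and 47.5 in NG2. The arrays did not overlap, and NG2 II was far above the others. The dim gene Rps3 went the other way in each array, at 1.13 (0.28 to 1.99; limma adjusted p = 0.970), as 1 of 47 where 5.19% of all genes did so.

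**Figure D2:**
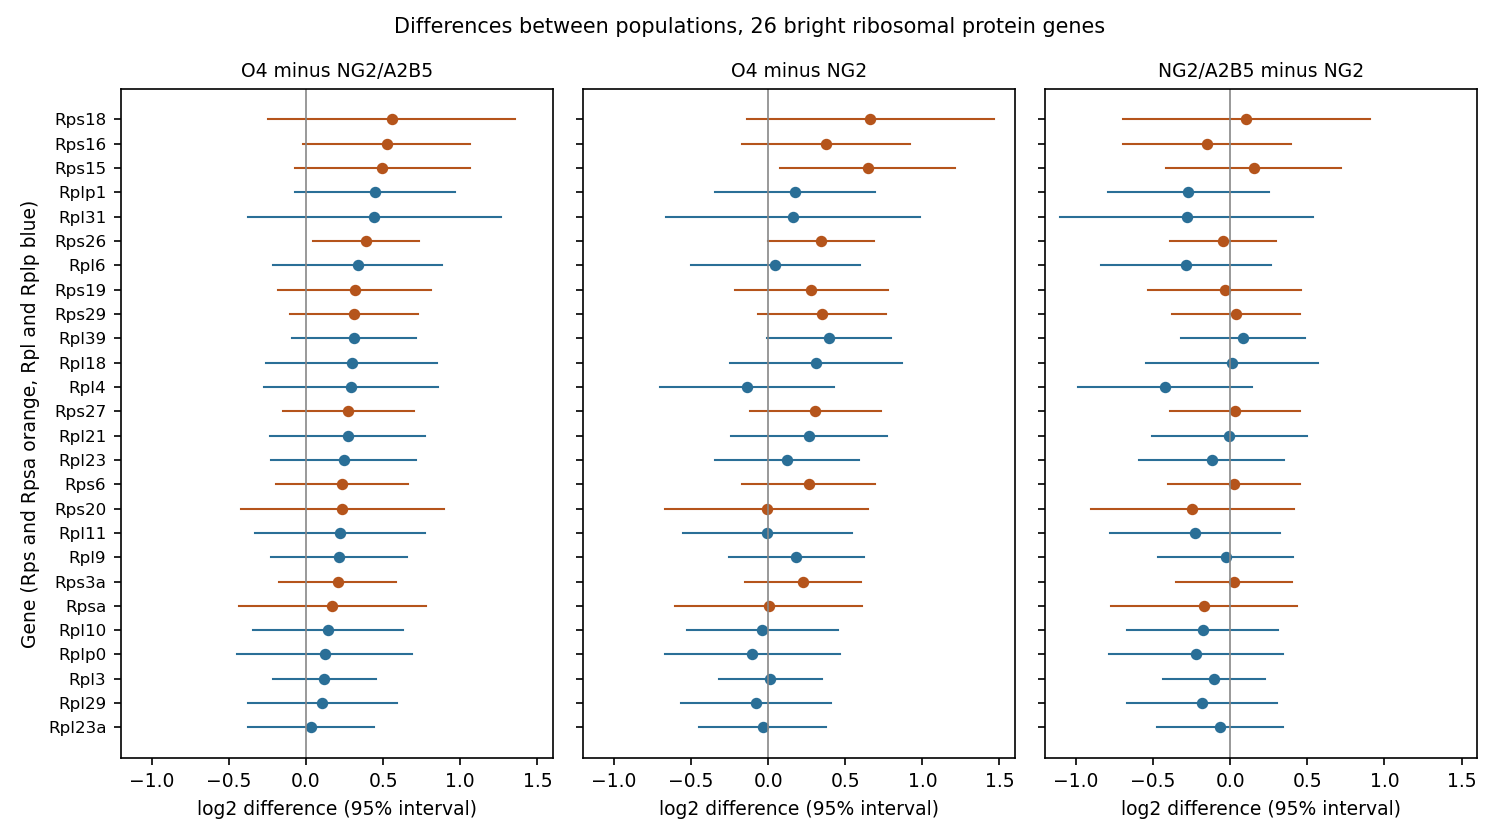
Log2 differences between populations for the 26 bright genes, with 95% intervals from the fit over all 9 arrays, small-subunit genes in orange and large-subunit genes in blue. All 26 points lie right of 0 in O4 minus NG2/A2B5, while 19 do in O4 minus NG2 and 8 in NG2/A2B5 minus NG2, and most intervals cross 0.

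The bright genes moved together from array to array. Relative to each gene's own mean, their median log2 deviation was −0.09, 0.34 and 0.24 on O4 arrays I, II and III, −0.02, −0.15 and −0.16 on NG2/A2B5 arrays, and −0.17, 0.28 and −0.23 on NG2 arrays. O4 II, O4 III and NG2 II were high, with 25, 21 and 26 of the 26 genes above their own mean. The other 6 arrays were low, with 0 to 12 genes above. The other 299 bright genes had medians of −0.04, 0.12 and 0.01 in O4, −0.05, 0.01 and −0.06 in NG2/A2B5, and −0.16, 0.27 and −0.12 in NG2. On NG2 II the bright genes of both kinds were raised alike, and on O4 II and O4 III the ribosomal genes stood above the other bright genes. Across the 9 arrays these medians of the 2 kinds of gene had a Pearson r of 0.81, over points that share each array's scaling.

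**Figure D3:**
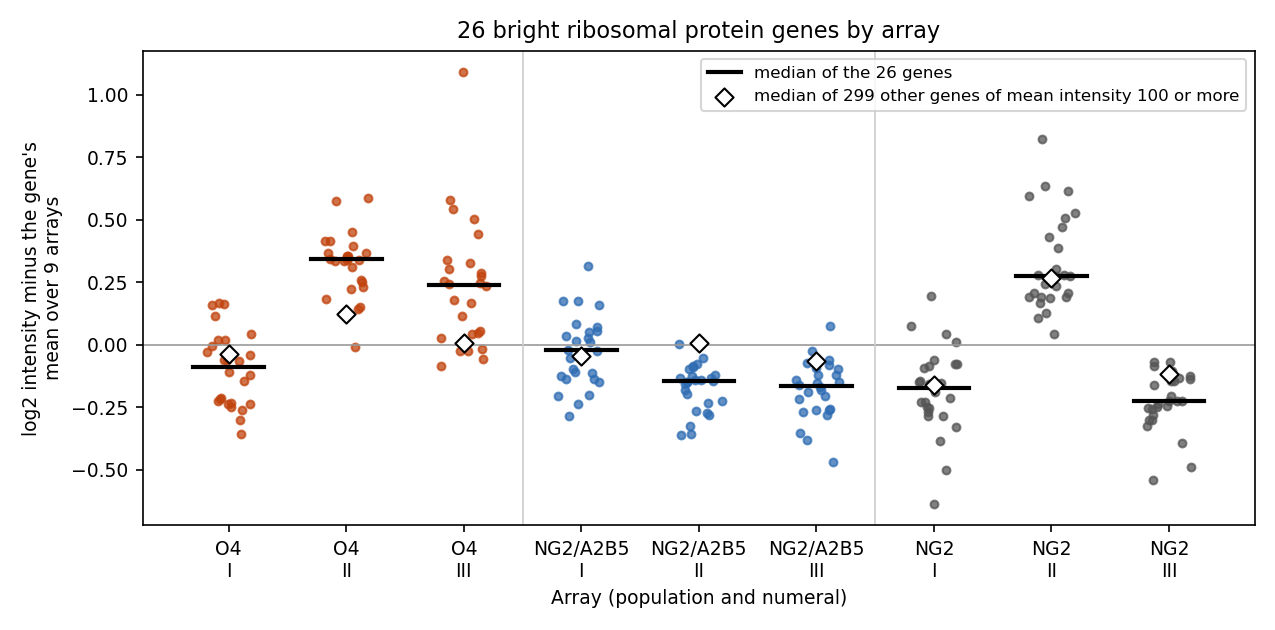
Log2 intensity of each of the 26 bright ribosomal protein genes minus its own mean over 9 arrays, by population and numeral, with bars for their median and diamonds for the median of 299 other genes of mean intensity 100 or more. O4 II, O4 III and NG2 II lie above 0 with medians of 0.34, 0.24 and 0.28, and the other 6 arrays lie below.

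Population differences varied with the numeral. O4 minus NG2/A2B5 was above 0 for 10 of the 26 bright genes between the arrays numbered I (median −0.07), for 26 between those numbered II (0.49) and for 25 between those numbered III (0.37). O4 minus NG2 was above 0 for 15, 14 and 26 genes at numerals I, II and III, with medians of 0.11, 0.03 and 0.38. NG2/A2B5 minus NG2 was above 0 for 20, 0 and 18 genes, with medians of 0.11, −0.47 and 0.07. Of the other bright genes, 200, 45 and 192 of 298 were above 0 in that contrast, with medians of 0.13, −0.30 and 0.07. Their medians were 0.04, 0.10 and 0.07 in O4 minus NG2/A2B5 and 0.11, −0.18 and 0.15 in O4 minus NG2. Without NG2 II, 7 of the 26 bright ribosomal protein genes were below 0 in NG2/A2B5 minus NG2 and their median turned to 0.09.

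The counts also changed with scaling. After quantile normalization, 21 of the 26 bright genes were above 0 in O4 minus NG2/A2B5, with a median of 0.09, and 14 of 26 in O4 minus NG2, with a median of 0.03. The median over all genes tested moved by less than 0.1 in each case, and that of the 299 other bright genes became −0.05 in O4 minus NG2/A2B5 and −0.08 in O4 minus NG2. Leaving out each array in turn kept 24 to 26 of the bright genes above 0 in O4 minus NG2/A2B5, with medians from 0.19 to 0.39. In O4 minus NG2 the range was 15 genes (without O4 II or NG2 III) to 25 genes (without NG2 II), with medians from 0.09 (without O4 II) to 0.36 (without NG2 II).

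Probes that the rule or the choice of 1 probe a gene left out gave a second reading of the same family. Of these, 12 were bright on all arrays: 3 further probes of members (Rpl21, Rplp1 and Rpsa), 8 probes annotated to several genes, among them Rpl22 with a pseudogene, and 1 copy. In O4 minus NG2/A2B5 all 12 were above 0, with a median of 0.23. In O4 minus NG2, 10 of 12 were above 0 (median 0.12), and in NG2/A2B5 minus NG2, 1 was (median −0.13). They come from the same arrays, so they repeat the genes and not the samples. Further probes of Rpl6, Rpl28 and Rps24 gave differences over 1 in size with the opposite sign to the used probe in at least 1 contrast, such as 3.17 for Rpl28 in O4 minus NG2 against −0.13. Each of those probes was dim, with a mean intensity of 0.37, 0.18 and 0.14.

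Over the 9 arrays, the median Pearson r between pairs of the 26 bright genes was 0.74 (325 pairs, from −0.07 to 0.97), against 0.29 between other bright genes. The points share array scaling and amplification. Rpl21, Rps16 and Rps27 were most like the rest, with r of 0.97, 0.96 and 0.96 against the median of the other 25 genes. Rpl29, Rpl23a and Rpl11 were least like it, with r of 0.43, 0.61 and 0.69. Rpl29 was highest on NG2/A2B5 I at 88.4 units, where most bright genes were near or under their mean.

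Markers of other cell types were summed per array beside these results. The brightest probes weigh most in such sums. The 12 microglial markers summed to 9.47, 11.7 and 9.14 units in O4, 8.26, 6.63 and 7.67 in NG2/A2B5, and 7.36, 7.64 and 6.94 in NG2. The O4 arrays were highest, although C1qa, C1qb and C1qc lay under the 25th percentile on all 9 arrays. The 7 neuronal markers summed to between 75.1 and 98.1 on O4 arrays, between 67.7 and 95.5 on NG2/A2B5 arrays and between 41.6 and 66.7 on NG2 arrays, with Snap25 under the 25th percentile on all arrays. The 14 oligodendrocyte lineage markers summed to between 548 and 846 on O4 arrays, between 561 and 788 on NG2/A2B5 arrays and between 605 and 725 on NG2 arrays, with numeral III highest in each. Among them, Cspg4, which encodes NG2, read 92.1 to 154 in O4, which was sorted as NG2 negative, between 104 and 185 on NG2/A2B5 arrays and between 135 and 166 on NG2 arrays. The astrocyte sums ran from 72.4 to 168, those of fibroblasts and pericytes from 21.7 to 33.6 and those of endothelium from 6.66 to 11.2, overlapping between populations. The part of these levels in the ribosomal protein values was not tested.

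Arrays of different numerals were compared with the population as a term. None of the 47 genes was called in numeral III minus II, where 3.55% of 12166 genes were, in III minus I, where 0% were, or in II minus I, where 0.23% were (0.0904% higher and 0.14% lower). At an unadjusted p under 0.05 in limma, 2, 0 and 3 of the 47 passed, against 23.7%, 12.6% and 17.2% of all genes. The bright genes were mostly of 1 sign: 25 of 26 were below 0 in III minus II (median −0.19) and 25 of 26 above 0 in II minus I (median 0.25). These medians were close to those of the 299 other bright genes, −0.18 and 0.20, and over all genes tested they were −0.08 and 0.10. Leaving out each array in turn gave 19 (without NG2 II) to 26 bright genes below 0 in III minus II, with medians from −0.35 (without NG2/A2B5 II) to −0.07 (without NG2 II). In II minus I it gave 21 (without O4 I or NG2 II) to 26 above 0, with medians from 0.11 (without NG2 II) to 0.42 (without NG2/A2B5 I). After quantile normalization 16 of 26 were below 0 in III minus II (median −0.03) and 17 of 26 above 0 in II minus I (median 0.02). In III minus I, 16 of 26 were above 0, with a median of 0.05, and without O4 I or O4 III that fell to 8 or 10 genes. Arrays III lay wholly above arrays I for Rpl24 alone and wholly below for Rpl19 alone, where 10.2% and 8.17% of all genes did.

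Rpl34, a large-subunit protein whose start region is shown above, read 9.36, 6.29 and 6.43 units on arrays III of O4, NG2/A2B5 and NG2, against 14.3, 10.5 and 13.5 on arrays II. No array III reached an array II, as for 3 of 47 genes, where 16% of all genes did so. The log2 difference was −0.81 (95% interval −1.27 to −0.35; limma adjusted p = 0.0791). Arrays I read 7.67, 8.42 and 7.27, all under arrays II, with II minus I at 0.71 (0.25 to 1.16; limma adjusted p = 0.165). Such a gap with no overlap upwards was seen in 5 of 47 genes, where 14.8% of all genes had one, and downwards in none, where 6.79% did. Rpl4 differed by −0.46 in III minus II (−0.85 to −0.06; limma adjusted p = 0.168) and by 0.44 in II minus I (0.04 to 0.84). Rpl9, a large-subunit protein, averaged 607 ± 72.8 units on arrays II and 471 ± 37.1 on arrays I (SD, n = 3 each), a difference of 0.36 (0.05 to 0.68; limma adjusted p = 0.245).

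Within populations, II minus I was above 0 for 26 of 26 bright genes in O4 (median 0.42) and 25 in NG2 (0.50), and for 8 in NG2/A2B5 (−0.16). For the other bright genes it was above 0 for 201 of 298 in O4 (0.13), 280 of 299 in NG2 (0.43) and 167 of 297 in NG2/A2B5 (0.05). III minus I was above 0 for 23 of the 26 bright genes in O4 (0.28), for 6 on the NG2/A2B5 arrays (−0.16) and for 9 on the NG2 arrays (−0.06). Of the other bright genes, 164, 148 and 167 of 298 were above 0 there in that order (0.04, −0.003 and 0.05). The 12 bright probes left out by the rule showed the same signs as the 26 bright genes in II minus I, with 12, 1 and 12 above 0 in O4, NG2/A2B5 and NG2.

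Genes that build and serve the ribosome were set beside its proteins. None of the measured genes of these 5 lists was called by limma in a population contrast. At an unadjusted p under 0.05 in limma 0 to 3 a list passed, in lists of 15 to 98 measured genes. Of all genes, 3.28% passed in O4 minus NG2/A2B5, 8% in O4 minus NG2 and 4.48% in NG2/A2B5 minus NG2. The 98 measured ribosome biogenesis genes, which process rRNA and assemble the subunits, were split 49 and 49 about 0 in O4 minus NG2/A2B5, with a median of 0.00. Translation factors were above 0 for 26 of 38 in that contrast (median 0.06), and other TOP mRNA genes for 14 of 18 (median 0.07). The bright ribosomal protein genes had 26 of 26 and 0.27 there, and 21 of 26 and 0.09 after quantile normalization. The other lists were not cut by brightness. All 47 ribosomal protein genes, also without that cut, had 42 above 0 and a median of 0.24.

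In numeral III minus II, 92 of 98 biogenesis genes were below 0, with a median of −0.57, and 16 fell at an adjusted p under 0.05 in limma, where 1.92% of all genes did. Bop1, of the PeBoW complex that processes large-subunit rRNA, read 11.7, 11.3 and 9.43 units on arrays III of O4, NG2/A2B5 and NG2, against 22.5, 25.03 and 19.7 on arrays II. The arrays were far apart, and the log2 difference was −1.05 ± 0.12 (SE; limma adjusted p = 0.0251). Polr1a, the largest subunit of RNA polymerase I, fell by 1.02 on the log2 scale (SE 0.13; limma adjusted p = 0.0276). Bysl, a small-subunit assembly factor, fell by 1.21 (SE 0.16; limma adjusted p = 0.0303). The others called were Nolc1, Pno1, Tsr1, Gnl3, Ftsj3, Tsr2, Fbl, Nol10, Nop58, Riok2, Dkc1, Heatr1 and Rpf2, between −1.22 and −0.64. Leaving out any 1 of the 9 arrays gave 0 biogenesis genes called, with 0 to 5 called among all genes, while 89 to 94 of the list were below 0.

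Of the 38 translation factors 32 were below 0 in III minus II (median −0.39), and Eif2s2, Eif5 and Etf1 were called lower by limma. Of all genes, 1.92% were called lower in that contrast. Of the 18 other TOP mRNA genes 16 were below 0 (median −0.30), with only Cct2 called lower. Of 15 ribosomal protein chaperones and ribosome-associated genes 14 were below 0 (median −0.27), with Ascc3 and Mdm2 called lower. In the mTORC1 and S6 kinase list 22 of 29 were below 0 (median −0.12), 3 were called higher, where 1.64% of all genes were, and 1 lower. Eif4ebp1, the translation repressor that mTORC1 inactivates, fell by 1.56 (SE 0.17; limma adjusted p = 0.0240). Sesn1, a sestrin that restrains mTORC1, rose by 1.15 (SE 0.17; limma adjusted p = 0.0400). In II minus I, 90 of 98 biogenesis genes were above 0 with a median of 0.33, and none was called by limma. At an unadjusted p under 0.05 in limma 34 of the 98 passed, where 17.2% of all genes did. Of the 8 measured astrocyte markers, 4 were above 0 and 4 below in III minus II, with a median of −0.04. Gfap and Aldoc were called higher there by limma, at 1.72 and 1.27, where 1.64% of all genes were. Gja1 was at −2.06 (limma adjusted p = 0.0682), and the part of these markers in the ribosomal values was not tested.

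**Figure D4:**
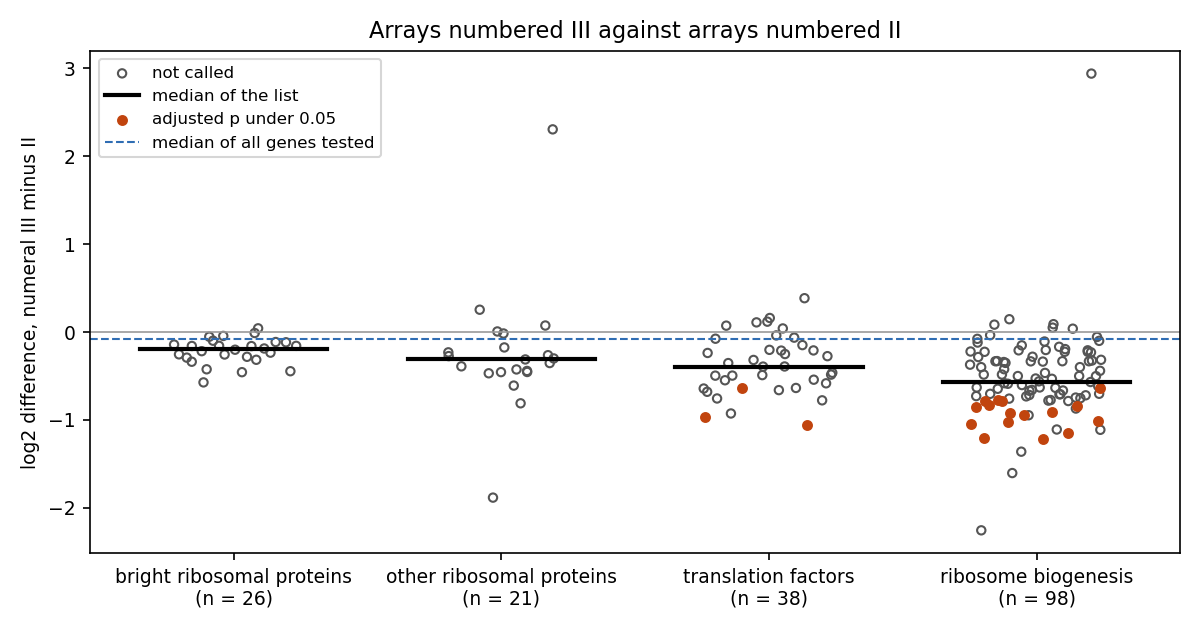
Log2 difference of numeral III minus II for bright and other ribosomal protein genes, translation factors and ribosome biogenesis genes, with 1 point a gene, bars for list medians, a dashed line for the median of all genes tested and filled points for genes at an adjusted p under 0.05. Biogenesis genes have a median of −0.57 with 16 called lower, and ribosomal proteins have none called.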

How the data were processed

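RNA from 9 samples was measured on one-colour arrays. Amplification by in vitro transcription and scaling by spiked controls are stated per the labels' protocols; scanner and software are not given in the sources used. The values the authors deposited are scaled probe intensities on a linear scale. Values coded -9999 were treated as missing, values at or below 0 were set to the array's smallest positive value, and log2 was taken with no further normalization. Of 35129 probes, 16865 had 1 symbol, 165 several and 18099 none; the last 2 classes were not tested. Symbols were looked up by identifier in the RefSeq gene table of GRCr8 (16836 matched, 1 updated), and each gene was read from its probe with the highest mean. The population fit used lmFit and eBayes of limma 3.58.1 (R 4.3.3, two-sided tests) on all 9 arrays with no numeral term, leaving 6 residual degrees of freedom and a prior of 1.76. The numeral fit held population as a term, leaving 4 and a prior of 1.55. P-values were adjusted by Benjamini-Hochberg over all genes. Trend and robust fits used statmod 1.5.0, and figures matplotlib 3.10.9 in Python 3.11.15. The code was checked on simulated data. Precision is limited by the number of arrays.

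The members, gene lists and marker lists were chosen with earlier results of these data known. The text names members called in any contrast, the 5 a direction with the smallest p in each population contrast, the 5 highest and lowest by mean, 9 genes of known roles, copy genes with their partners, members whose probes disagree, and the 3 genes with the smallest p of each gene list; a part of these is printed. Genes named for arrays that do not overlap or for likeness, and called genes beyond 3 a list, were chosen after their values were seen. Of the 9 genes, Rps27a was not analysed here and Rpl22 had only a probe naming several genes. Promoters came from the RefSeq table of GRCr8. The alternatives were quantile normalization, centred medians, leaving out dim genes, a floor at the 25th percentile, the mean of a gene's probes, trend and robust variances, leaving out each array, the numeral as a fixed or random block, only the 6 arrays compared, and no population term. Counts over bright members and over the biogenesis list were added after the data were seen.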

Additional observations from a re-analysis of the deposited data

Results flagged for a closer look

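The change of the 26 bright ribosomal protein genes between numerals ran in different directions in different populations. Between numerals II and I their median log2 difference was 0.42 in O4 and 0.50 in NG2, with 26 and 25 genes above 0, and −0.16 in NG2/A2B5, with 18 genes below 0. The other bright genes had medians of 0.13, 0.43 and 0.05 there in that order. In NG2, 280 of 299 of them were above 0, so most bright genes of both kinds were raised on that array. Between numerals III and I the median of the 26 genes was 0.28 on the O4 arrays, −0.16 on the NG2/A2B5 arrays and −0.057 on the NG2 arrays, with 23, 6 and 9 genes above 0. The other bright genes had medians of 0.04, −0.003 and 0.05 there. Each population has 1 array a numeral, so these differences between populations were not tested.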

How the results depend on the processing

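Over all alternatives, no member was called in a population contrast. With the numeral as a fixed replicate block, 0 members were called in each population contrast, and with a random block (consensus correlation 0.27) also 0. Deviations of arrays of the same numeral correlated across populations at 0.04 to 0.14 (3 of 9 pairs over 0.1), against −0.11 to 0.01 for other numerals, and all 9 arrays correlated best with their own numeral, which is a hint from the data and not the design. In numeral III minus II, 1 member (Rpl34) was called when dim genes were left out and 1 with the floor, and 2 (Rpl34 and Rpl4) with trend and robust variances, which also called 1 (Rpl34) in II minus I. Without each array in turn the members called stayed at 0 in all 6 contrasts. Bright members below 0 in III minus II numbered 16 of 26 under quantile normalization. Without single arrays they numbered 7 to 24 below 0 in NG2/A2B5 minus NG2 and 8 to 22 above 0 in III minus I. The median over all 47 members in O4 minus NG2 ran from −0.03 (without O4 II) to 0.30. Biogenesis genes called lower in III minus II numbered 36 without dim genes, 42 with the floor, 53 with trend and robust variances and 3 with the mean of a gene's probes. The share of all genes called in each of these settings is not given here. These counts of members and biogenesis genes therefore do not set them apart from other genes. The causes were not tested. Probes near the 25th percentile have little signal over background, and large differences there carry wide intervals.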
